A study of Mus musculus with 4 samples.

Results

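Retinoic acid is made from vitamin A inside the embryo and acts over short distances, and its level is set by the enzymes that make it and those that destroy it. The 9 genes described here encode the enzyme that completes its synthesis (Aldh1a2), a reductase that returns the aldehyde precursor to retinol (Dhrs3), the enzymes that degrade it (Cyp26a1 and Cyp26b1), its cytoplasmic binding proteins (Crabp1 and Crabp2) and its nuclear receptors (Rara, Rarb and Rarg). They were chosen by name from the table of 45706 genes, and all 9 were present once in that table and passed the filter on low counts. In the embryonic heart, retinoic acid from the epicardium and neighbouring mesoderm is needed for the second heart field, for septation of the outflow tract and for growth of the myocardium. The receptors bind DNA as partners of retinoid X receptors, and Rarb, Cyp26a1 and Dhrs3 are known targets of the pathway, so that some of its genes also report on its activity.

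The libraries came from the outflow tract of the heart of C57BL/6 mouse embryos at embryonic day 12.5, and total RNA was sequenced. The WT embryos were wild type. In Sox17eKO embryos the gene for SOX17, a transcription factor of arterial endothelium, was removed from aortic root endothelium with a Cre recombinase driven by an Nfatc1 enhancer, so that cells outside the reach of this driver kept the gene. Each genotype had 2 libraries, each from 10 pooled hearts, and the comparison served to find SOX17 targets.

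Reads assigned to genes ranged from 8113463 to 21883956 per library, with WT replicate 2 the shallowest. Sox17 itself was reduced in each Sox17eKO library, to 2.76 and 2.82 CPM (library-scaled counts, with factors from the trimmed mean of M-values, TMM) against 6.05 and 6.83 in WT. Its log2 fold change was -1.19 (edgeR adjusted p = 0.00574), and without WT replicate 2 it did not pass. All 8 outflow tract and second heart field markers were detected, with a summed level of 1296 to 1535 CPM. Tbx20 alone held 789 to 1033 CPM of this, and Isl1 was at 7.34 to 10.0 CPM. Airway and gut epithelial markers summed to 1.64 to 3.50 CPM. The counting step (HTSeq) assigned some reads to no annotated feature. Of gene, no-feature and ambiguous reads together, they made up 22.2% and 20.4% in WT replicates 1 and 2. In Sox17eKO replicates 1 and 2 they made up 34.1% and 29.5%. The counts do not show whether these reads lay in introns or outside genes. Liver and yolk sac markers were uneven between pools, at 97.5 and 15.1 CPM in WT and 6.83 and 177 CPM in Sox17eKO.

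None of the 9 retinoic acid genes differed between the genotypes past the threshold of an adjusted p of 0.05 in edgeR's quasi-likelihood test. Aldh1a2 came closest. Of the 16570 genes tested, 5.35% were called, 684 higher (4.13%) and 202 lower (1.22%) in Sox17eKO (769 and 111 when scaled by library size only). At an unadjusted p under 0.05 the count was 2 of 9 (Aldh1a2 and Dhrs3), against 20.9% of all genes tested. The limma-voom test also called 0 of 9. DESeq2 called 0 of the 2 it gave an adjusted p (Aldh1a2 and Rarb) and gave none for the other 7. The fitted level was lower in Sox17eKO for 6 of the 9 and higher for 3, with a median log2 fold change of -0.27 beside -0.01 over all genes tested. Both Sox17eKO libraries lay below both WT libraries for 4 of the 9 (Aldh1a2, Dhrs3, Crabp1 and Rarg), where 26.2% of all genes did so, and above them for 1 (Rarb), where 26.5% did.

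**Figure D1:**
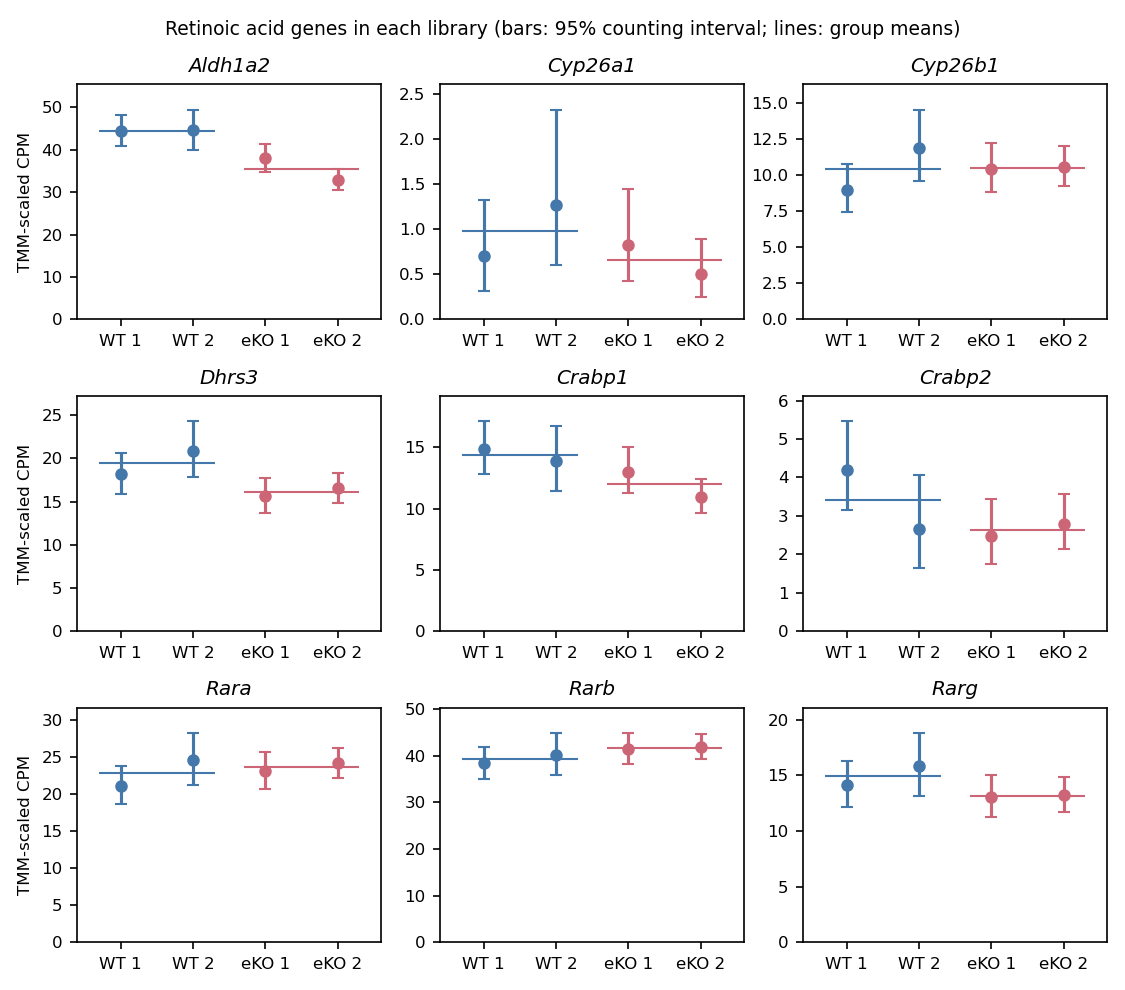
TMM-scaled CPM of each retinoic acid gene in the 2 WT and 2 Sox17eKO (eKO) libraries, with 95% counting intervals as bars and group means as lines; each axis starts at 0. Aldh1a2 sits at 44.4 and 44.5 CPM in WT and at 37.9 and 32.9 in Sox17eKO, while the libraries of Cyp26a1, Cyp26b1, Crabp2 and Rara overlap between genotypes.

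Levels of different genes were compared per kilobase of exonic length, as TPM, a share of the library's per-length total. The order from high to low was Aldh1a2, Crabp1, Rarb, Dhrs3, Rara, Rarg, Crabp2, Cyp26b1 and Cyp26a1. Aldh1a2 and Crabp1 led with means of 13.2 and 12.4 TPM over the 4 libraries, and their ranges (12.0 to 14.3 and 11.0 to 13.7) overlapped, so their order is not set. Dhrs3 (4.49 to 4.66) and Rara (3.53 to 4.56) also overlapped, as did Crabp2 (1.27 to 2.31) and Cyp26b1 (1.23 to 1.64). The other neighbours in this order were apart in all 4 libraries. Aldh1a2 was at or above 82.9% of the protein-coding genes tested, the middle gene Rara at or above 49.2% and Cyp26a1 at or above 7.04%. In TMM-scaled CPM per kilobase the order was the same, and the ranges of Rarg and Crabp2 then also overlapped. TPM values are used here only to set genes against each other, by order, ratio or share within a library. They are not used for the change of a gene between genotypes, because the median TPM ratio of all genes tested was itself 0.28 (log2) higher in Sox17eKO. Noncoding genes, many of them short RNAs, held 83.4% to 86.6% of the per-length sum.

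**Figure D2:**
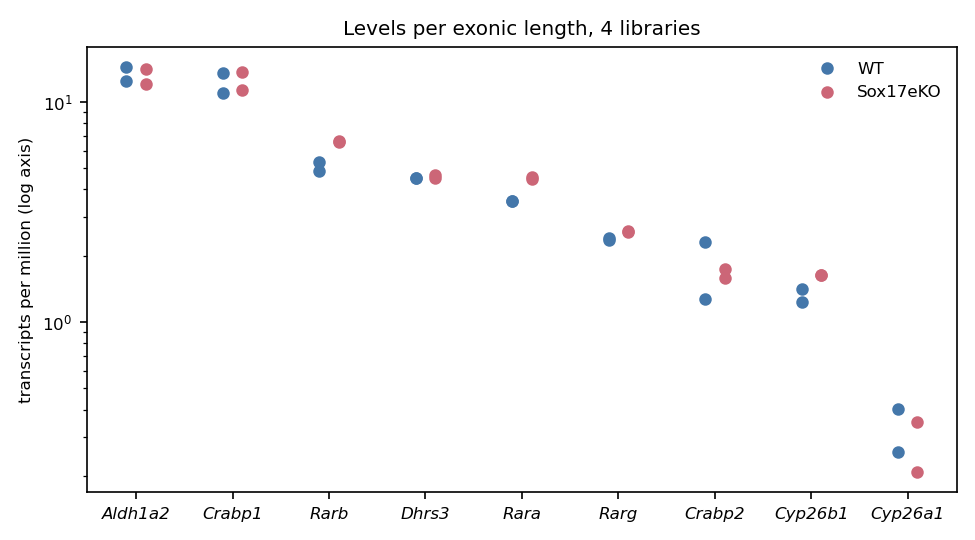
Level of each gene per exonic length (TPM, log axis) in the 4 libraries, ordered by mean. Aldh1a2 and Crabp1 lie between 11.0 and 14.3 TPM in every library and Cyp26a1 between 0.208 and 0.404.

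Aldh1a2 encodes retinaldehyde dehydrogenase 2, which oxidises retinaldehyde to retinoic acid and is the main source of the hormone in the early embryo, with the epicardium among its sites. It was covered by 573 and 352 reads in WT replicates 1 and 2 and by 550 and 724 in Sox17eKO, which gave 44.4 and 44.5 CPM in WT against 37.9 and 32.9 in Sox17eKO. The groups did not overlap, and the WT libraries differed from each other far less than the Sox17eKO libraries did. The fitted level in Sox17eKO was 0.794 times that in WT (95% interval 0.688 to 0.916), or -0.33 on the log2 scale (standard error 0.099). This missed the threshold (edgeR adjusted p = 0.0559, range 0.0165 to 0.380 over the alternatives). It passed with no filter on low counts (adjusted p = 0.0344) and after a trend on GC content was taken out (0.0165), and not after a trend on gene length was (log2 fold change -0.29, adjusted p = 0.148). Without Sox17eKO replicate 2, the lowest library, the log2 fold change was -0.23 (adjusted p = 0.380), and without Sox17eKO replicate 1 it was -0.43 (adjusted p = 0.0694). In whole tissue, fewer cells of a kind and less RNA per cell cannot be told apart.

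Epicardial and mesothelial markers were lower in the same libraries. All 10 of them had a lower fitted level in Sox17eKO (median log2 fold change -0.21), and 2 fell, Upk3b, a uroplakin of mesothelium (-0.35, edgeR adjusted p = 0.0142), and Lrrn4 (-0.53, edgeR adjusted p = 0.0143). The Upk3b call ended without WT replicate 2 and without Sox17eKO replicate 2 (edgeR adjusted p = 0.122 and 0.152). The summed level of the list was 447 and 480 CPM in WT and 418 and 374 CPM in Sox17eKO, with none of the 10 at 0. Wt1 and Tbx18, the transcription factors that define the epicardium, were at -0.057 and -0.084 on the log2 scale and did not pass. Aldh1a2 amounted to 9.94% and 9.27% of the list's sum in WT and to 9.07% and 8.82% in Sox17eKO. The part of the markers in the Aldh1a2 values was not tested.

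Dhrs3, which reduces retinaldehyde back to retinol and so withholds substrate from ALDH1A2, was at 18.1 and 20.9 CPM in WT and 15.6 and 16.5 CPM in Sox17eKO. The groups did not overlap. Its fitted level was 0.830 times that of WT (95% interval 0.691 to 0.997), and it did not pass (edgeR adjusted p = 0.230). Per exonic length Aldh1a2 was at 3.17 and 2.76 times the level of Dhrs3 in WT and at 3.15 and 2.58 times in Sox17eKO. This transcript ratio overlapped between genotypes, and enzyme activity was not measured.

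The CYP26 enzymes oxidise retinoic acid to forms that are cleared, and shield tissues from it. Cyp26b1 was at 8.997 and 11.9 CPM in WT and 10.4 and 10.6 CPM in Sox17eKO, with the Sox17eKO libraries between the WT ones. The log2 fold change was 0.034 (95% interval -0.30 to 0.37), and the sign turned without WT replicate 1 (-0.18). Cyp26a1 rested on 9 and 10 reads in WT and 12 and 11 in Sox17eKO, which is 0.698 and 1.27 CPM against 0.828 and 0.500. The libraries overlapped, and the interval of its fitted ratio, 0.324 to 1.47, covers both a fall and a rise, so no difference was detectable at this depth. Cyp26b1 exceeded Cyp26a1 per exonic length in every library, by 3.48 to 7.81 times. The third enzyme of the family, Cyp26c1, had 1 to 11 reads per library and was not tested.

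Crabp1 and Crabp2 encode small cytoplasmic proteins that hold retinoic acid. CRABP2 passes it on to the receptors in the nucleus, while CRABP1 is a marker of migrating neural crest and of some neurons. Crabp1 was at 14.9 and 13.9 CPM in WT and 13.0 and 11.0 CPM in Sox17eKO, without overlap, and its log2 fold change of -0.28 did not pass (edgeR adjusted p = 0.268). Once the length trend was taken out it was -0.11. Crabp1 has the shortest exonic sequence of the 9 genes, 802 bases. Neural crest and Schwann precursor markers summed to 180 and 161 CPM in WT and 152 and 170 CPM in Sox17eKO, and neuronal markers to 33.0 and 33.5 against 34.4 and 23.7. The crest marker with the smallest p, Sox10, rested on 4 to 17 reads per library (log2 fold change -0.59, edgeR adjusted p = 0.584), and the neuronal one, Elavl3, on 6 to 11 (-1.20, adjusted p = 0.190). Crabp2 was at 4.19 and 2.66 CPM in WT and 2.48 and 2.77 CPM in Sox17eKO. The WT libraries of Crabp2 differed 1.58-fold, on 54 and 21 reads, and its log2 fold change of -0.42 (edgeR adjusted p = 0.429) came to less than 0.01 in size without WT replicate 1. Crabp1 exceeded Crabp2 per exonic length by 5.86 to 8.65 times.

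The receptors RARα, RARβ and RARγ are ligand-dependent transcription factors. Rarb was the most abundant of them per exonic length, followed by Rara and Rarg, in each of the 4 libraries. Rarb was at 38.3 and 40.2 CPM in WT and 41.4 and 41.9 CPM in Sox17eKO. The groups did not overlap, and the difference was small and did not pass, with a fitted ratio of 1.06 (95% interval 0.929 to 1.22, edgeR adjusted p = 0.638). Rara was at 21.1 and 24.5 CPM in WT and 23.1 and 24.1 CPM in Sox17eKO, a fitted ratio of 1.04 (0.878 to 1.24). Rarg was at 14.1 and 15.8 CPM in WT and 13.0 and 13.2 CPM in Sox17eKO, without overlap, a ratio of 0.884 (0.729 to 1.07, edgeR adjusted p = 0.477). Of the summed receptor TPM within each library, Rarg made up 21.5% and 21.9% in WT and 18.9% and 18.7% in Sox17eKO. Rarb made up 47.2% and 45.0% against 48.5% and 48.0%. An exact permutation test of 2 libraries against 2 cannot give a two-sided p below 0.333, so these shares were not tested and are given as a description. With the length trend removed the log2 fold change was -0.030 for Rarb, whose gene spans 388318 bases, and -0.16 for Rarg, which spans 22580.

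Rarb occupies chr14:16430839-16819156 (GRCm38) on the minus strand, tail to tail with Top2b on the plus strand. Of its 5265 exonic bases 34.1% are overlapped by Top2b exons. Top2b, a DNA topoisomerase, was at 292 to 327 CPM (log2 fold change -0.07, edgeR adjusted p = 0.640). Whether the counting used strand is not given in the sources used here. Reads of the shared stretch may therefore be missing or misassigned for Rarb. The noncoding gene Gm48162 overlaps a further 4.31% of its exonic bases on the plus strand. Gm48124 in Aldh1a2 and Gm22061 in Rara lie in introns and share no exonic base with them.

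**Figure D3:**
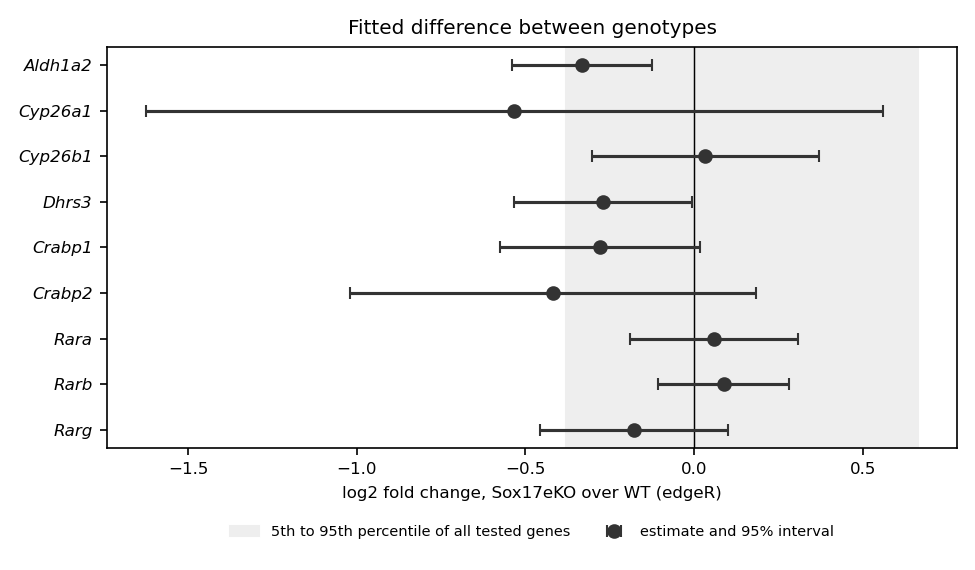
Fitted log2 fold change of Sox17eKO over WT for each retinoic acid gene with its 95% interval (edgeR); the grey band runs from the 5th to the 95th percentile of all genes tested, -0.38 to 0.67. The intervals of Aldh1a2 and Dhrs3 end below 0, and that of Cyp26a1 is the widest.

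Rarb and Cyp26a1 are read as gauges of retinoic acid signalling because their promoters hold a retinoic acid response element, and these sequences are printed to set the elements side by side. Promoter windows of 300 bases around RefSeq starts (GRCm38.p6) were given for 8 of the 9 genes, and Crabp2 was not among them. Each window was searched on both strands for a direct repeat of half-sites (AGGTCA, allowing G for the first A, and T for the second G) with 5 bases between them, the arrangement called DR5. Of 32851 windows of this length in the table, 0.0974% held a DR5 repeat. Rarb and Cyp26a1 were the 2 genes with one among the 8, and no window of these 8 genes held the arrangement with 2 bases between the half-sites (0.268% of all windows). The elements follow, 5′ to 3′ with the half-sites in capitals.
Rarb: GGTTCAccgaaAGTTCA
Cyp26a1: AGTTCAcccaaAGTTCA
The Rarb element is at chr14:16575513-16575529 on the strand of the gene and begins 53 bases before the start site (position -53). The Cyp26a1 element lies at chr19:37697776-37697792 on the strand opposite to the gene, with its window stretch beginning at position -32. The whole windows show them in place, with the repeat in capitals (for Cyp26a1 as its complement on the strand of the gene), and the Aldh1a2 window, in which neither repeat was found, is given beside them because Aldh1a2 had the smallest p of the set.
Rarb, chr14:16575427-16575726, minus strand: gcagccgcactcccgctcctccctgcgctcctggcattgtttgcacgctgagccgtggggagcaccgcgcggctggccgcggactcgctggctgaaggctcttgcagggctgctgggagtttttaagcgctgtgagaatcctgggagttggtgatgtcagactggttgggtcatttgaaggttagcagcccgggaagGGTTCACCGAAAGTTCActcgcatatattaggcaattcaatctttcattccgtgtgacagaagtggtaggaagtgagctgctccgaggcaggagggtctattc
Cyp26a1, chr19:37697558-37697857, plus strand: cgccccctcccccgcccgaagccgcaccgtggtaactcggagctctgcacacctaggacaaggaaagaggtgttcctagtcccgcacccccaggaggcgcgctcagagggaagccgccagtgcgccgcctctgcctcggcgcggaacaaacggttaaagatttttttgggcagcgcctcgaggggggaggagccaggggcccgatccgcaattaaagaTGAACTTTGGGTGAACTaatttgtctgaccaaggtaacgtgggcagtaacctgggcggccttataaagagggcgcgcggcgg
Aldh1a2, chr9:71215539-71215838, plus strand: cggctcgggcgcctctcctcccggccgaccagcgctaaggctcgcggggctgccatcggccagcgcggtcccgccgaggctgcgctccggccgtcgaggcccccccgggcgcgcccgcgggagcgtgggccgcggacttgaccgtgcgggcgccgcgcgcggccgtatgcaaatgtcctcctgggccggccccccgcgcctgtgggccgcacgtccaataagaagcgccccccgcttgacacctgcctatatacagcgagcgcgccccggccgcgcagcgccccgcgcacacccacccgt
The Aldh1a2 window is 78.0% G and C. In the counts the 2 genes with the element were not called. The Rarb window lies inside the annotated gene, whose outermost start on the minus strand is at chr14:16819156. Gene counts pool all Rarb transcripts (7 in GENCODE M21), so they do not separate those that begin at this window. Rarb, on 318 to 921 reads per library, had a log2 fold change interval (95%) of -0.11 to 0.28, while that of Cyp26a1, on 9 to 12 reads, ran from -1.63 to 0.56.

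The rest of the pathway was followed in 3 lists. Of 19 other genes of retinoid transport, storage and metabolism, 11 were tested, 2 fell, none rose and 9 did not pass in edgeR, with a median log2 fold change of -0.18. Over all genes tested, 1.22% were called lower. At an unadjusted p under 0.05 the count was the same 2 of 11, against 20.9% of all genes tested. Fabp5, a fatty acid-binding protein that can also carry retinoic acid, fell from 107 and 113 CPM in WT to 85.9 and 86.3 in Sox17eKO (log2 fold change -0.35, edgeR adjusted p = 0.0114). The groups did not overlap. The Fabp5 call held in the fit without the length trend (-0.30, adjusted p = 0.0399) and ended without WT replicate 2 (0.121) and without Sox17eKO replicate 1 (0.0736).

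Among the enzymes that can make retinoic acid, Aldh1a2 stood alone in level. Aldh1a1 was at a mean of 1.16 TPM against 13.2 for Aldh1a2 and did not pass (log2 fold change -0.30, edgeR adjusted p = 0.384), and Aldh1a3 had 3 to 10 reads per library and was not tested. Rdh10, which makes the retinaldehyde that ALDH1A2 uses, had a log2 fold change of 0.03 (95% interval -0.34 to 0.39). Rbp4 and Ttr, which carry retinol in blood, varied with the pool. Ttr was at 4.96 and 0.886 CPM in WT and 0.276 and 6.14 CPM in Sox17eKO, the same order of libraries as the liver and yolk sac markers, and its fold change could not be estimated usefully (standard error 1.75).

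Of 13 retinoid X receptors and receptor cofactors 3 rose, none fell and 10 did not pass, with a median of 0.18. Over all genes tested, 4.13% were called higher. An unadjusted p under 0.05 was found for 7 of the 13, against 20.9% of all genes tested. The partners themselves were not called. Rxra had a log2 fold change of 0.07 (95% interval -0.12 to 0.25), Rxrb one of -0.16 (-0.37 to 0.06), and Rxrg, on 20 to 32 reads per library, one of -0.37. The 3 that rose are large proteins that serve many transcription factors. Ep300, a histone acetyltransferase, rose from 59.4 and 49.5 CPM to 76.8 and 78.0 (log2 fold change 0.50, edgeR adjusted p = 0.00349). Crebbp, its paralogue, rose by 0.46 and Ncor1, the corepressor of receptors without ligand, by 0.35 (edgeR adjusted p = 0.00403 and 0.0129). In the fit without the length trend the values were 0.30, 0.25 and 0.15, and none of the 3 passed (adjusted p = 0.0773, 0.124 and 0.343). With the GC trend removed as well, Ep300 and Crebbp passed (0.30 and 0.26, adjusted p = 0.0442 and 0.0496) and Ncor1 did not (0.14, 0.244). All 3 also missed the threshold without WT replicate 2 (adjusted p = 0.0918, 0.0913 and 0.161), and Ncor1 without Sox17eKO replicate 2 (0.0801).

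Of 16 genes known to respond to retinoic acid 9 were tested, 1 rose, none fell and 8 did not pass, with a median of -0.16. Over all genes tested, 4.13% were called higher. An unadjusted p under 0.05 was found for 2 of the 9, against 20.9% of all genes tested. Meis2, a homeodomain partner of HOX proteins, rose from 147 and 135 CPM to 190 and 171 (log2 fold change 0.35, edgeR adjusted p = 0.0160). Its value with the length trend removed was 0.14 (adjusted p = 0.398), and its call also ended without WT replicate 2 (0.185) and without Sox17eKO replicate 1 (0.172). Hoxb1, a direct target in the hindbrain and second heart field, had at most 1 read in any library and was not tested. Tgm2, a transglutaminase induced by retinoic acid in many cells, was the most abundant of the list at 61.2 TPM and had a log2 fold change of -0.10 (adjusted p = 0.479). The 8 markers of endothelium, the tissue in which Sox17 was deleted at the aortic root, had a median log2 fold change of -0.13. Of these, 7 had a lower fitted level in Sox17eKO and 1 a higher one. The receptor gene Tie1 was the 1 called (-0.34, edgeR adjusted p = 0.0204), where 1.22% of all genes tested were called lower. Tie1 was not past the threshold without WT replicate 2 or without Sox17eKO replicate 1.

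**Figure D4:**
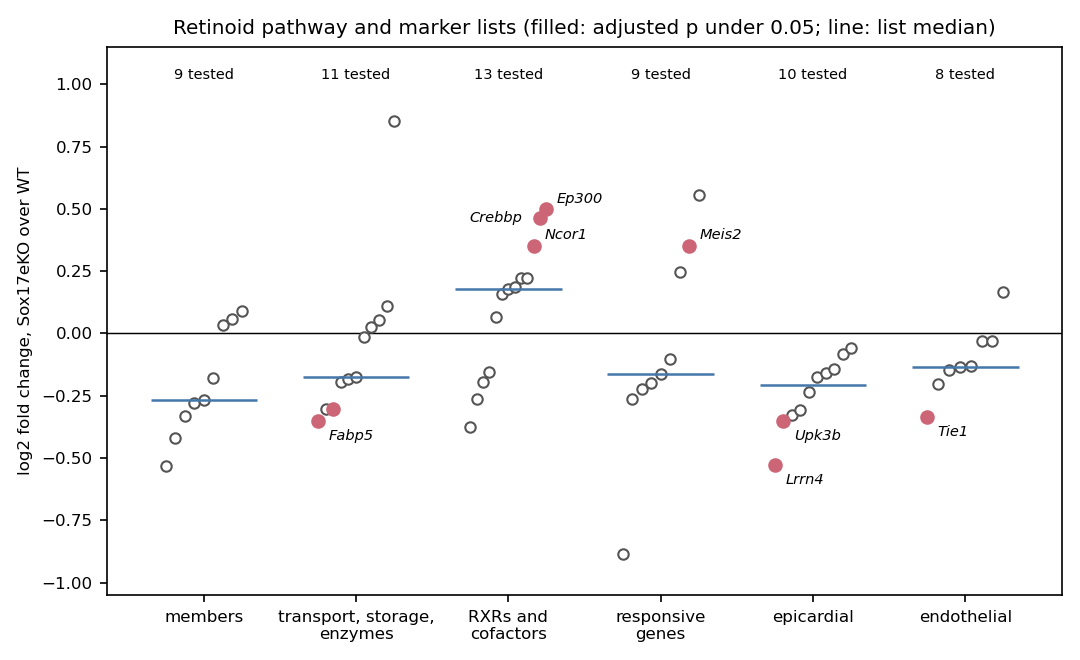
Log2 fold change of each tested gene in the retinoic acid set, the 3 pathway lists and the epicardial and endothelial marker lists; filled points have an edgeR adjusted p under 0.05 and lines are list medians. Filled points above 0 (Ep300, Crebbp, Ncor1 and Meis2) and below 0 (Fabp5, Upk3b, Lrrn4 and Tie1) are labelled where the text gives their values.

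The profile over the 4 libraries was compared with that of the other protein-coding genes of at least 10 CPM (9593 for Rarb and 9594 for Cyp26a1) by the Euclidean distance of centred log2 CPM. The 3 nearest to Rarb, the member with the highest log2 fold change, were Gnl2, Ubap2 and Eloa, at distances of 0.013 to 0.015, with log2 fold changes of 0.077 to 0.096 that missed the threshold. For Cyp26a1, the member with the lowest, the nearest were Kpna2, Arl4d and Hand1 at 0.27 to 0.28, a distance that its 9 to 12 reads make uncertain.

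**Figure D5:**
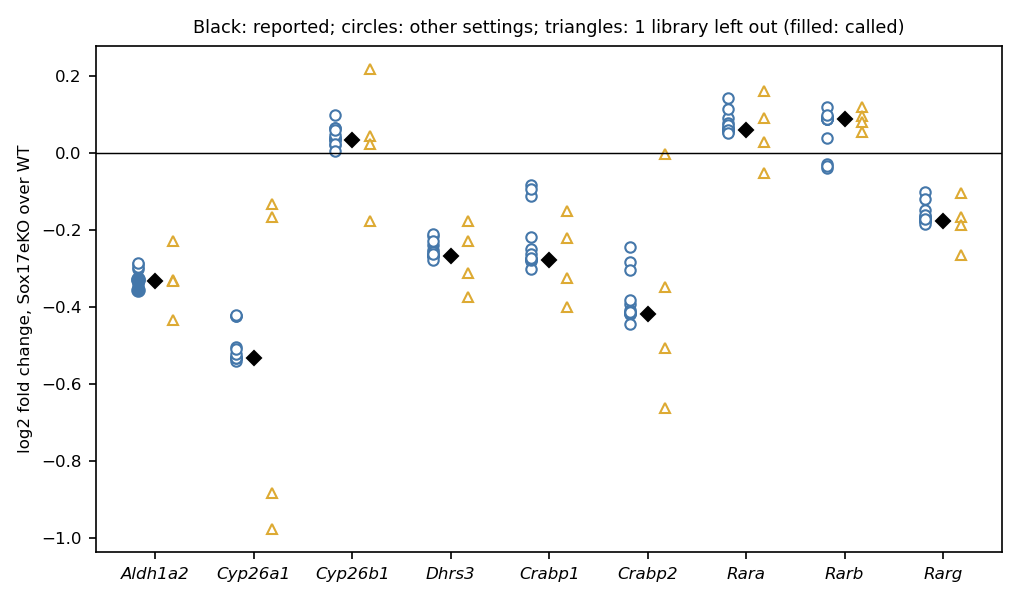
Log2 fold change of each retinoic acid gene as reported (black), under other settings (circles) and with 1 library left out (triangles); filled symbols were called. Aldh1a2 is the 1 gene with filled symbols and stays between -0.43 and -0.23, whereas Cyp26b1, Rara and Rarb have values on both sides of 0.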

How the data were processed

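The deposited table holds raw counts, not normalized by the authors, for Ensembl genes in 4 libraries (2 WT, 2 Sox17eKO, each from 10 pooled hearts). TRIzol RNA went into strand-specific Illumina libraries, per the labels' protocols. TopHat2, HTSeq and mm10 were used, per the submitters' processing notes, and versions, annotation release and strand setting are not given in the sources used here. Symbols, lengths and coordinates came from GENCODE M21 (GRCm38, the assembly of mm10), which matched 45143 of 45706 rows. The 5 HTSeq summary rows were left out. Replicate libraries were not copies of each other (chi-square over its degrees of freedom 4.77 between WT and 6.01 between Sox17eKO pools). The p-values measure the spread between pools. In the edgeR fit the spread of each gene was moderated with that of other genes, so it does not rest on that gene's 4 libraries alone.

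All 16570 genes passing filterByExpr were fitted with edgeR 4.0.16 (R 4.3.3) by the robust quasi-likelihood test on genotype alone with TMM scaling, adjusted by Benjamini-Hochberg, and called under 0.05. Standard errors were taken as |log2 fold change| over the square root of F. The fit had 2 residual degrees of freedom and a biological coefficient of variation of 0.0791. Counting intervals (95%) hold counting error alone, and reads of one molecule can be counted more than once. Alternatives were DESeq2 1.42.0, limma-voom (limma 3.58.1), other scalings and filters, a replicate block, each library left out on the same genes, and protein-coding fits after removal of a fitted curve (mgcv 1.9.3) of each library against exonic length with gene span, against GC content, or against both, which also removes any genotype difference that runs with these. CPM per kilobase was added after seeing the data. The fitting script was first tested on simulated counts with known changes.

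The 9 genes and all lists were chosen with earlier results of these data known. Named genes were all 9, Sox17, up to 4 called genes per pathway list by smallest p, the marker with the smallest p in each of 4 marker lists, overlapping genes, and the 3 nearest profiles. A called gene of the transport list is not reported here. Lrrn4, Wt1, Tbx18, Krt19, Bnc1, Aldh1a1, Aldh1a3, Cyp26c1, Rdh10, Rbp4, Ttr, the retinoid X receptors, Hoxb1 and Tgm2 were named after their values were seen. So were Tbx20 and Isl1.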

Additional observations from a re-analysis of the deposited data

How the results depend on the processing

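Against 886 called genes (684 higher, 202 lower), DESeq2 gave 409 (300 and 109), limma-voom 517 (421 and 96), and no filter on low counts 1364 (387 lower). The fits with a trend removed used protein-coding genes, of which 749 (600 and 149) were called with no trend removed, 149 (78 and 71) with the length trend removed and 259 (115 higher) with both trends (length and GC) removed. Genes called lower numbered 111 with library size scaling, 105 without the robust option and 484 with the GC trend removed (protein-coding). Leaving out each library in turn gave 103 to 970 called genes, 90 to 641 higher and 13 to 329 lower, with the lowest values without WT replicate 2. Labels give no pairing of replicate numbers, and deviations of same-numbered libraries correlated at -0.032 across genes. With a replicate block 1684 genes were called (1107 and 577), and with the block and the length trend removed 453 (186 higher), Ep300 and Crebbp among them (adjusted p = 0.0239 and 0.0376).

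Of the 9 genes 1, Aldh1a2, was called with no filter, with the GC trend removed and with the replicate block (edgeR adjusted p = 0.0240), and 0 of 9 in the other fits, including all 4 with 1 library left out. Aldh1a2, Dhrs3, Crabp1, Crabp2, Cyp26a1 and Rarg kept their sign in each fit that gave them an adjusted p. DESeq2 gave none for 7 of the 9, and Cyp26a1 was dropped by the filter at 1 CPM. The Rarb log2 fold change turned to -0.030 with the length trend removed, to -0.041 with both trends removed and to -0.034 with the block and the length trend. With 1 library left out, Cyp26b1 ranged from -0.18 to 0.22, Rara from -0.052 to 0.16 and the marker Sox10 from -1.35 to 0.23. The causes were not tested. Depth limits Cyp26a1 and Crabp2, with 9 to 61 reads per library.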

Other observations

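Among all genes with a DR5 repeat in a promoter window, 8 were tested, Rarb and Cyp26a1 among them. In edgeR 1 fell and none rose, where 1.22% of all genes tested were called lower. The median log2 fold change was -0.19 beside -0.01 over all genes tested. The gene that fell was the embryonic globin gene Hbb-y (-0.56, edgeR adjusted p = 0.0288), named here after its value was seen. Others of the 8 were the platelet chemokine gene Ppbp (-0.70, adjusted p = 0.0904) and Blvrb, an enzyme of heme breakdown abundant in red cells (-0.24, adjusted p = 0.307). The rest were Prokr2 (-0.14), Cfap45 (0.07) and Syndig1 (0.12), which were not called. The summed erythroid markers were 2331 and 2926 CPM in WT against 1539 and 2001 in Sox17eKO.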
